A study of Drosophila melanogaster with 3 samples.

Results

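The Y-linked male fertility genes described here are 7 genes, kl-2, kl-3, kl-5, ARY, Pp1-Y1, Pp1-Y2 and Ppr-Y, of 14040 genes in all. They were taken by gene name and fill 8 rows of the deposited tables, since ARY has 2. Whole Drosophila melanogaster larvae of the third instar, from stocks kept at 20 degrees, gave total RNA in 3 groups (female, male and metafemale), each with 3 biological replicates, per the labels. A metafemale is a fly with an additional X chromosome beside diploid autosomes. Neither females nor metafemales normally carry a Y, and the labels give no karyotype, strain or cross for any group. For every transcript the tables give 1 fraction of the counted reads per group, printed here multiplied by 1000000 (counts scaled to that total, CPM). For the 8 rows of the 7 genes, no comparison of males with another group has a replicate check. Only pieces of kl-3 and kl-5 listed under older names could be compared library by library.

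The Y chromosome of Drosophila is not needed for male development, but males without it are sterile. Its fertility genes are transcribed in primary spermatocytes of the testis, several of them as giant loops that hold introns filled with satellite repeats. kl-2, kl-3 and kl-5 encode heavy chains of axonemal dynein, the motor that bends the sperm tail. Pp1-Y1 and Pp1-Y2 encode relatives of the catalytic subunit of protein phosphatase 1 (PP1), and ARY is named for an aldehyde reductase. The testis of the third instar larva already holds spermatocytes.

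The values of a group behave as an equal-weight average of 3 libraries, each scaled to its own total. Inferred totals were 65.6 to 89.2 M transcript counts in females, 31.6 to 92.4 M in males and 69.0 to 112 M in metafemales, and 3 counts at this depth correspond to 0.0133, 0.0178 and 0.0112 CPM. Genes of larval tissues were present in all 3 groups, with levels that differed between groups for most of them. The fat body genes Lsp2 and Fbp1 had 9444 and 6045 CPM in females, 9876 and 8636 in males, and 5064 and 1108 in metafemales. The muscle myosin gene Mhc had 676, 371 and 3708 CPM, the salivary glue gene Sgs3 1485, 1529 and 515, the haemocyte gene Hml 90.9, 32.7 and 201, and the neuronal gene elav 19.7, 16.8 and 17.2. The part of these differences in the comparisons below was not tested. Intervals below are at 95%, cover counting error only, leave out how larvae vary, and treat each read as its own molecule, although no molecular identifiers are recorded.

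All 7 genes were detected in males, at low levels, and all 7 had 0 counts in metafemales. In females 6 of the 7 had between 1 and 14 counts, which placed them far below the male level. The dynein gene kl-2 had 2.73 CPM in males (2.49 to 2.99), 0.0481 CPM in females (0.0239 to 0.0864) and 0 in metafemales. Males were 56.7-fold above females for kl-2 (31.3 to 115). kl-5 had 2.0 CPM in males (1.79 to 2.23), 0.0442 in females (0.0212 to 0.0814) and 0 in metafemales. kl-3 had 1.65 CPM in males (1.46 to 1.85), 0.0631 in females (0.0347 to 0.105) and 0 in metafemales. The male level was 45.2-fold the female one for kl-5 (24.3 to 95.3) and 26.1-fold for kl-3 (15.4 to 48.2, and 49.0 without the female library of 65.6 M), so the male and female intervals of all 3 dynein genes were well apart.

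ARY was the highest of the 7 in males. Its rows stood at 2.78 CPM (2.54 to 3.05) and 2.63 CPM in males and at 0 in both other groups, and the rows are overlapping transcripts that may hold the same reads. Against the level of 3 counts over the female libraries, the male value of ARY stood 209-fold higher. The phosphatase gene Pp1-Y2 had 1.17 CPM in males (1.01 to 1.34) and 0.00448 in females, which is 1 count, and the ratio of 261 has an interval of 46.6 to 10016. Pp1-Y1 had 0.984 CPM in males (0.840 to 1.15) and 0.00956 in females, which is 2 counts, and a ratio of 103 (29.2 to 764). Ppr-Y was lowest in males, at 0.720 CPM (0.598 to 0.860), with 0.0102 CPM or 2 counts in females and a ratio of 70.9 (20.7 to 484). Against the level of 3 counts in metafemales, the male values stood 64.5-fold higher for Ppr-Y and 249-fold higher for ARY, with the other genes between.

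**Figure D1:**
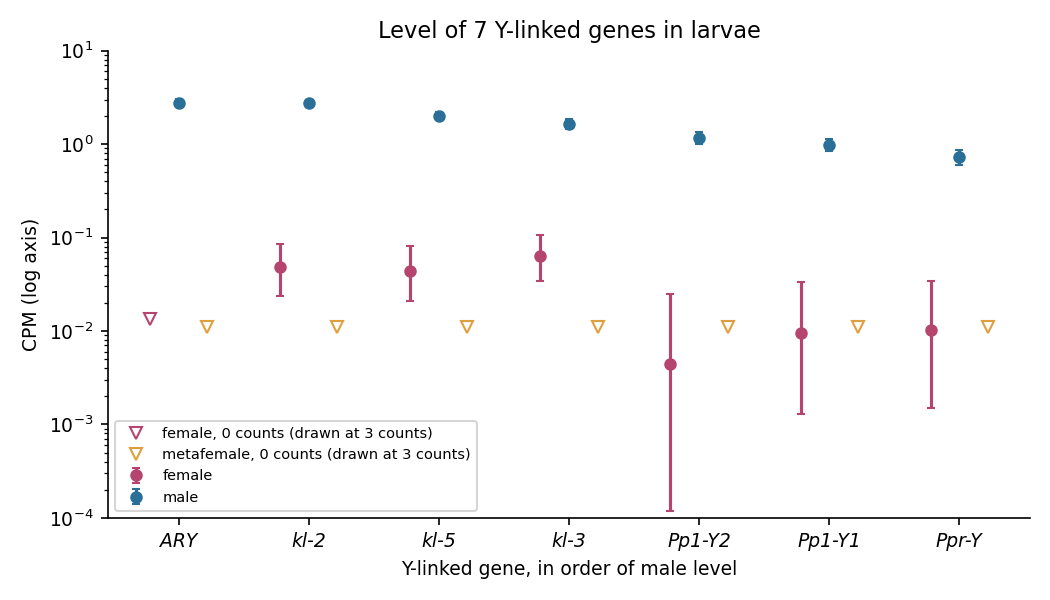
Level of each Y-linked gene (log axis, CPM) in female, male and metafemale larvae. Points are the deposited group values with 95% counting intervals, and open triangles mark 0 counts, drawn at the level of 3 counts. Male points lie between 0.720 and 2.78 CPM, female points at 0.0631 CPM or below, and all metafemale values are 0.

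Here and below, a gene is called at least 2-fold higher or lower after 0.1 CPM was added to each value. All 7 genes were at least 2-fold higher in males than in females, against 17.5% of 12832 genes whose mean reached 0.05 CPM, and none was lower, against 2.81%. Their log2 differences ran from 2.90 (Ppr-Y) to 4.85 (ARY), with a median of 3.60, where the median of all genes was -0.02. All 7 were also at least 2-fold higher in males than in metafemales, against 32% of genes, and none was lower, against 9.94%. Their median log2 difference there was 4.13, where that of all genes was 0.45. The 7 genes entered this set of genes only through the male column, so the counts describe them and carry no test. Between females and metafemales the 7 genes had 40 counts against 0, at effective depths of 226 and 269 M. Against the level of 3 counts in metafemales, the female values stood 5.65-fold higher for kl-3 (3.01-fold without the female library of 65.6 M), 4.31-fold for kl-2 and 3.96-fold for kl-5. These folds rest on 14, 11 and 10 female counts and are not lower bounds.

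In males the 7 genes spanned 3.86-fold, from 0.720 to 2.78 CPM, and together held 12.0 CPM or 0.00120% of the counts. The order was ARY, kl-2, kl-5, kl-3, Pp1-Y2, Pp1-Y1 and Ppr-Y. The ratio of ARY to kl-2 was 1.02 (0.895 to 1.16) and that of Pp1-Y2 to Pp1-Y1 was 1.19 (0.962 to 1.47), so neither pair could be ordered at this depth. Other neighbours differed beyond counting error in the rows under their own names, kl-2 from kl-5 by 1.36-fold (1.18 to 1.57) and kl-5 from kl-3 by 1.21-fold (1.03 to 1.43). Along the Y of the Release 6 assembly the 7 genes stand in the order Pp1-Y1, kl-5, kl-3, kl-2, ARY, Ppr-Y and Pp1-Y2.

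Per length the order turned. The coding length in the Release 6 annotation is 13377 bases for kl-2, 13779 for kl-3 and 13677 for kl-5, but 939 for Pp1-Y2, 951 for Pp1-Y1, 1152 for ARY and 1707 for Ppr-Y. On the scale of CPM per kb of coding length, ARY had 2.42 in males, Pp1-Y2 1.24, Pp1-Y1 1.03, Ppr-Y 0.422, kl-2 0.204, kl-5 0.146 and kl-3 0.120. The dynein genes thus stood last per length, and the span from ARY to kl-3 was 20.2-fold. These lengths are those of the present gene models, whereas the counts rest on models placed on the earlier build dm3, so a model that lacked exons then has too low a value per kb. They also leave out untranslated parts of transcripts, which may weigh more in the genes of short coding length.

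Rows under older names show that this applied to kl-3 and kl-5. The annotation lists CG40992 and CG40936 as earlier names of parts of kl-3 and CG41497 as one of kl-5. In males CG40992 had 0.321 CPM, CG40936 0.159 and CG41497 0.0580, and all were 0 in metafemales. With these rows added, kl-3 came to 2.13 CPM and kl-5 to 2.06 CPM in males, and to 0.155 and 0.151 CPM per kb, still the lowest of the 7. These sums are close and have no interval, so kl-3 and kl-5 are not ordered by them.

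The values of these pieces were low enough to be divided into whole counts of the 3 male libraries in 1 way only. CG40992 had 34, 43 and 4 counts in the libraries of 92.4, 91.5 and 31.6 M, or 0.368, 0.470 and 0.126 CPM (mean 0.321 ± 0.176, SD, n = 3). CG40936 had 15, 26 and 1 counts, or 0.162, 0.284 and 0.0316 CPM, and CG41497 had 7, 9 and 0. The smallest male library was the lowest in each of these rows, while for CG40992 and CG40936 every male library lay above the female libraries, which all had 0. An exact two-sided permutation test over libraries gave p = 0.1 for CG40992 and for CG40936, the smallest p that 3 against 3 allows, and p = 0.4 for CG41497 (0.15, 0.15 and 0.4 after Benjamini-Hochberg adjustment over these 3 tests). With that floor, and with females that normally carry no Y, these tests decide nothing about the pieces. The main rows of the 7 genes were too high in males for a single division, so their spread between male libraries could not be read.

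Rows of other Y genes showed the same low library. Over the 11 rows on the Y that could be divided, the pieces above included, the library of 31.6 M held 26 of 550 counts, 4.73%, against 14.7% of the depth. In 53 autosomal rows of like level that were at least 10-fold higher in males than in females it held 12.4%, and in 1104 other autosomal rows 10.4%. ORY, a fertility gene of the Y short arm, had 63, 39 and 8 counts, and the CCY row CG42620 had 10, 10 and 0. The rows of PRY differed, with 38, 43 and 1 in CG40930, 23, 32 and 5 in CG41367, and 21, 13 and 4 in CG42619. CG40648, with 1 count in each library, went the other way. What part this library has in the male levels of the 7 genes was not tested.

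**Figure D2:**
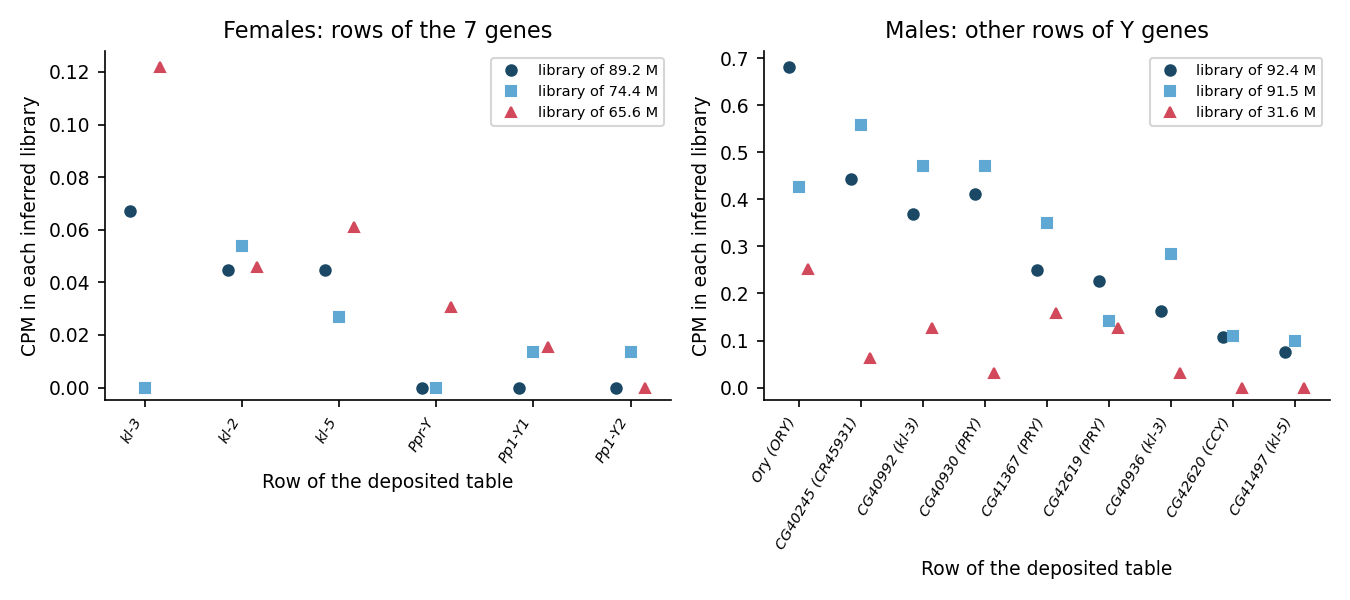
Level in each inferred library (CPM, linear axis), for the 6 genes with counts in females (left) and for rows of Y genes in males with at least 10 counts that could be divided (right; row name, with the present gene in brackets). Symbols mark the 3 libraries of a group by their inferred totals. On the right the library of 31.6 M is lowest in each row, for example 0.126 CPM against 0.368 and 0.470 in CG40992. On the left kl-2 is alike in all 3 and kl-3 is 0 in the library of 74.4 M.

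The female counts of the 7 genes came to 40, of which the libraries of 89.2, 74.4 and 65.6 M held 14, 8 and 18. By depth they held 38.9%, 32.5% and 28.6%, and by these counts 35%, 20% and 45%. kl-2 was spread evenly, with 4, 4 and 3 counts, or 0.0448, 0.0538 and 0.0457 CPM. kl-5 had 4, 2 and 4 counts and kl-3 had 6, 0 and 8. For kl-3 the male level was 49.0-fold the female one without the library of 65.6 M (21.5 to 143) and 17.4-fold without that of 74.4 M (10.3 to 32.1), against 26.1-fold with all 3. For kl-2 and kl-5 these ratios stayed between 37.8 and 60.3. Ppr-Y had its 2 counts in the library of 65.6 M, Pp1-Y1 had 1 each in those of 74.4 and 65.6 M, and the 1 count of Pp1-Y2 was in that of 74.4 M. Every female library thus held reads of some of the 7 genes, and leaving out any library still left kl-2, kl-3 and kl-5 with at least 3 counts.

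As a percentage of the male level, the female level was 3.83% for kl-3 (2.08 to 6.50), 2.21% for kl-5 (1.05 to 4.12) and 1.76% for kl-2 (0.869 to 3.20). It was 1.41% for Ppr-Y (0.207 to 4.84), 0.972% for Pp1-Y1 (0.131 to 3.42) and 0.383% for Pp1-Y2 (0.00998 to 2.15). For ARY it was 0, and 3 counts would allow 0.478%. The intervals of the 3 dynein genes all lay above the bound for ARY. Among 38 autosomal spermatocyte genes the same percentage had a median of 0.417 and a range of 0.164 to 79.1, and kl-3 lay above 29 of them, kl-2 above 22 and Pp1-Y2 above 16. In metafemales, where all 7 Y-linked genes were at 0, none of the 38 autosomal genes was at 0 and 34 had at least 3 counts. The 2 sets are at unlike levels, with male medians of 1.65 CPM for the 7 and 22.6 CPM for the 38. The part of level in this contrast was not tested. The source of the female counts was not tested.

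Autosomal genes of spermatocytes were mostly more abundant in males than the Y-linked genes. The lists compared were the meiotic arrest genes, whose products switch on the transcription programme of spermatocytes, and genes of spermatocyte and spermatid products. In males 11 meiotic arrest genes ran from 1.22 to 22.7 CPM with a median of 5.0, of which 9 were at least 2-fold higher in males than in females and 2 (achi and mip40) were within 2-fold. The 27 product genes ran from 12.4 to 249 CPM with a median of 42.9, and all 27 were at least 2-fold higher in males. The median Y-linked gene, at 1.65 CPM, was 3.03-fold below the median of the meiotic arrest genes, 26.0-fold below that of the products and 13.7-fold below that of both lists together. In bulk larvae, fewer cells of a type and less RNA per cell cannot be told apart.

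No product gene was as low as any of the 7. The lowest products were wa-cup, c-cup and cola at 12.4, 13.4 and 12.9 CPM in males. Among the products are genes transcribed late, in spermatids, such as wa-cup and c-cup, and these are counted in the 38 autosomal genes. The highest were S-Lap1 at 249 CPM, S-Lap7 at 197 and loopin-1 at 203, which encode leucyl aminopeptidases of the sperm. Among the meiotic arrest genes, comr at 1.22 CPM lay below kl-3, kl-5, kl-2 and ARY, while aly at 2.60 and tomb at 2.72 were close to kl-2 and ARY. Pp1-Y2, Pp1-Y1 and Ppr-Y were below all 38 autosomal genes. Others of this list were higher, with nht at 5.28, sa at 5.0 and can at 5.67, all testis forms of general transcription factor subunits. The gene mia had 6.63 CPM and topi 8.67. The copies achi and vis are near-identical, as are Mst35Ba and Mst35Bb, and their single values are uncertain, like those of gdl and janB, which overlap other genes.

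Per kb of coding length the distance was wider. Coding length leaves out untranslated parts of transcripts, which the counts can include. Values per kb may therefore be too high where coding regions are short, as in several of the products. The part of this in the distance was not tested. The median of the 7 genes was 0.422 CPM per kb, that of the meiotic arrest genes 3.55 and that of the products 92.0, and the medians of the 7 and of both lists differed 96.2-fold. On this scale ARY, at 2.42, lay above 4 of the 11 meiotic arrest genes, Pp1-Y2 and Pp1-Y1 lay above 1 (comr, at 0.677), and Ppr-Y and the dynein genes lay below all 38.

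**Figure D3:**
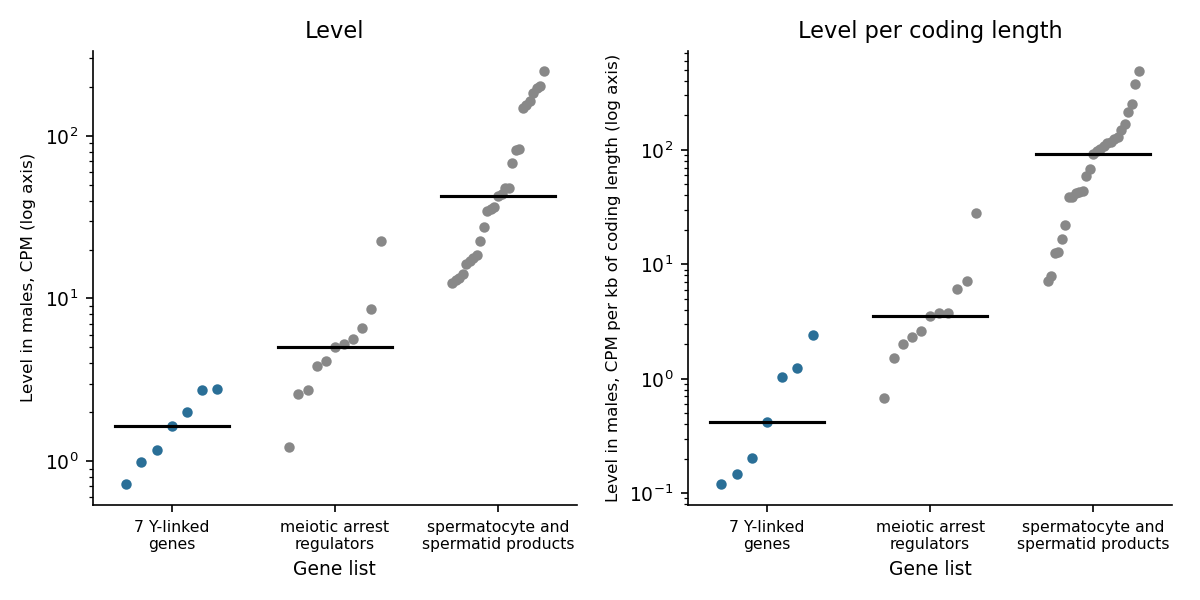
Levels in male larvae of the 7 Y-linked genes, 11 meiotic arrest genes and 27 products (1 point per gene, log axes), as CPM (left) and CPM per kb of coding length (right). Bars mark medians, 1.65, 5.0 and 42.9 CPM on the left and 0.422, 3.55 and 92.0 on the right. The Y-linked genes overlap the lower meiotic arrest genes and none of the products.

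Dynein heavy chains all have long coding regions, so kl-2, kl-3 and kl-5 can be set beside their relatives almost without a length correction. Of 10 relatives outside the Y, 7 were at least 2-fold higher in males than in females, and 5 of these, all axonemal, exceeded kl-2, kl-3 and kl-5. CG17150 (Dnah3) had 24.6 CPM in males, 0.255 in females and 0.283 in metafemales. Dhc98D had 24.5, 0.254 and 0.305, and Dhc36C had 22.4, 0.454 and 0.548. The X-linked Dhc16F had 14.3, 0.469 and 0.538, and Dhc62B had 12.1, 2.89 and 1.61. Per kb, CG17150 was 9.18-fold above kl-2 (8.34 to 10.1), 12.8-fold above kl-5 (11.5 to 14.3) and 15.7-fold above kl-3 (13.9 to 17.7). For Dhc62B the ratio to kl-2 was 4.97 (4.49 to 5.51). These ratios leave out the pieces of kl-3 and kl-5 under older names, which would lower the ratios to these genes.

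The other axonemal relatives stood near or below the Y-linked genes in males, CG3339 at 1.87 CPM, CG9492 at 1.23 and Dhc93AB at 0.477. In the rows under their own names, kl-3 and kl-5 differed from CG3339 by no more than counting error. The ratios of CG3339 to them per kb were 1.08 (0.913 to 1.27) and 0.880 (0.752 to 1.03). With the pieces under older names added, kl-3 and kl-5 had 0.155 and 0.151 CPM per kb, against 0.129 for CG3339. These sums have no interval, so CG3339 is not ordered against them. Unlike kl-2, kl-3 and kl-5, these 3 relatives also had 0.321 to 0.461 CPM in females and 0.407 to 0.514 in metafemales. The cytoplasmic dynein gene Dhc64C had 112 CPM in males, 141 in females and 138 in metafemales, and btv, a dynein of transport along cilia, had 1.62, 1.35 and 1.06. Both were within 2-fold between males and females, as was Dhc93AB.

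The PP1 genes gave a like order. Among 8 relatives outside the Y, 5 were at least 2-fold higher in males than in females, and each of these was above both Y-linked genes in males. The X-linked Pp1-13C had 10.7 CPM in males, 0.0520 in females and 0.0532 in metafemales. PpD5 had 8.78, 0.0176 and 0.0141 CPM, PpN58A had 6.27, 0.119 and 0.0432, PpY-55A had 4.58, 0.0279 and 0.00818, and PpD6 had 2.62, 0.0503 and 0.0291. Despite its name PpY-55A is on chromosome arm 2R. Per kb, PpD6 was 2.09-fold above Pp1-Y2 (1.76 to 2.48) and 2.51-fold above Pp1-Y1 (2.10 to 3.02), and Pp1-13C was 9.53-fold (8.22 to 11.1) and 11.5-fold (9.77 to 13.5) above them. The broadly expressed Pp1-87B had 159 CPM in males and 190 in females, and with Pp1alpha-96A and flw it was within 2-fold between the sexes.

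**Figure D4:**
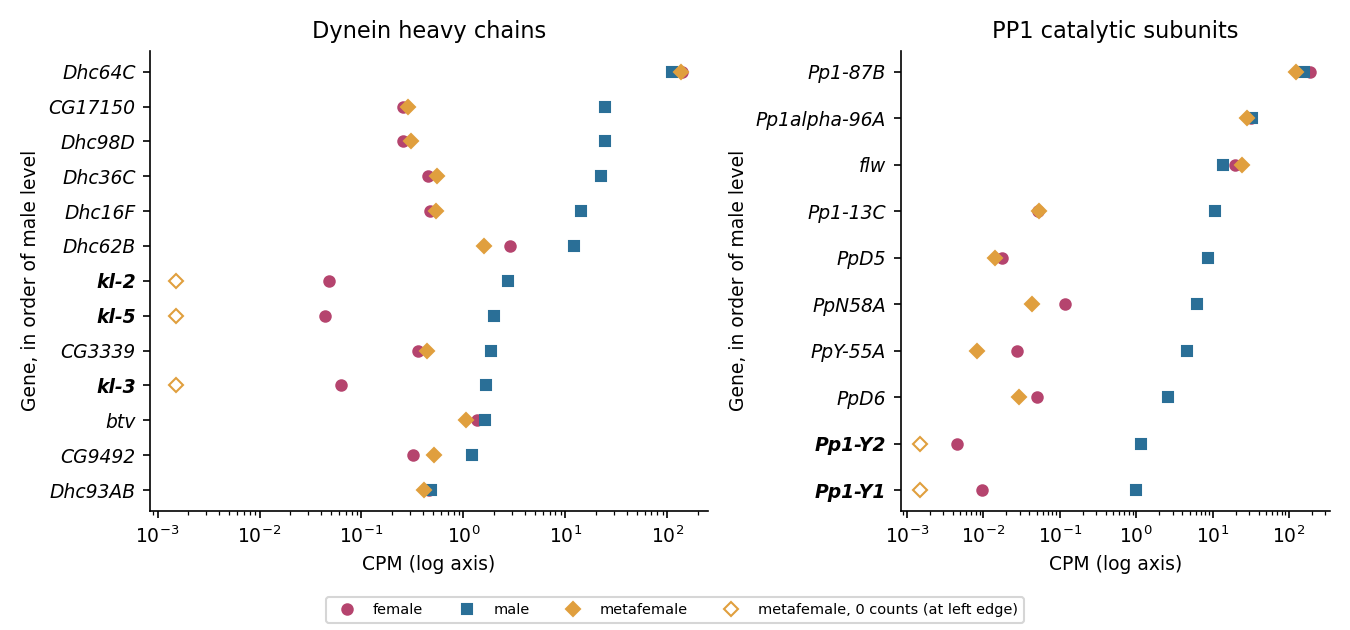
Levels (CPM, log axis) of dynein heavy chain genes (left) and PP1 catalytic subunit genes (right) in female, male and metafemale larvae, in order of the male level, with the Y-linked genes in bold. Open symbols mark 0 counts and are placed near the left edge. Among genes at least 2-fold higher in males, Pp1-Y1 and Pp1-Y2 are the lowest PP1 genes at 0.984 and 1.17 CPM, and 5 of 7 dynein relatives lie above kl-2, kl-3 and kl-5.

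Genes for RNA-binding proteins of spermatocytes, some of which bind the transcripts of the Y loops, were all more abundant than the Y-linked genes. Of 5 listed genes 3 were at least 2-fold higher in males than in females and 2 (Rb97D and heph) were within 2-fold. blanks had 19.0 CPM in males, 0.315 in females and 0.0953 in metafemales, and bol had 65.5, 3.96 and 5.19. eIF4G2, a translation factor needed in spermatocytes, had 125 CPM in males, 43.0 in females and 28.1 in metafemales. Rb97D had 28.9, 18.3 and 12.1 CPM, and heph, which encodes a protein of the polypyrimidine tract-binding family, had 88.6, 69.8 and 21.9.

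Markers of other cells of the gonad were measured beside them. Of 8 germline genes 5 were at least 2-fold higher in males than in females and 3 (piwi, AGO3 and tej) were within 2-fold, with a male range of 0.401 to 7.14 CPM. The germline differentiation gene bgcn had 7.14 CPM in males, 0.372 in females and 0.264 in metafemales, and nos had 1.15, 0.162 and 0.101. The summed level of the germline genes was 5.80 CPM in females, 17.4 in males and 4.44 in metafemales, and none was at 0 in any group. Of the male sum, bgcn alone held 7.14 CPM. All 5 genes of somatic gonad cells (tj, eya, zfh1, upd1 and Fas3) were within 2-fold, with summed levels of 80.7, 74.6 and 47.8 CPM. However, these genes are also used in other larval tissues. Of 6 genes of other larval tissues 5 were within 2-fold and 1, Hml, was lower in males. Their part in the levels of the Y-linked genes was not tested.

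Row by row, other Y genes had lower levels than most of the 7. Whole-gene levels of WDY, CCY and PRY, each split over several rows, were not summed and would be higher. These genes are therefore not ranked against the 7, and their whole-gene levels may exceed some of them. The tables hold 21 further rows that the annotation places on the Y, of 14 present genes if the pieces of kl-3 and kl-5 are counted, and 16 of these rows were above 0.0178 CPM in males, the level of 3 counts. FDY (row CG41503), a copy of the autosomal vig2, was highest at 0.841 CPM in males and the only one with counts in metafemales (0.0461 CPM, with 0.116 in females), and reads of such copies can be shared with the parent gene. The rows of WDY had 0.501, 0.586 and 0.667 CPM in males, those of CCY 0.0725, 0.488 and 0.695, those of PRY 0.165, 0.252 and 0.304, and ORY had 0.454. The pseudogene Mst77Y-16Psi (row CG40530) had 0.494 CPM, CG40245, which the annotation lists under both CR45931 and WDY, had 0.355, CG40648 was at that level of 3 counts, and CG41423 was below it at 0.0145 CPM. CG40635, CG40719 and CG40801 were at 0 in all groups. In females 8 of the 21 rows had counts, among them FDY with 26, Mst77Y-16Psi with 5 and the WDY rows with 4, 3 and 5. The library of 65.6 M held 4, 2 and 5 of the counts in the WDY rows.

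The pattern over the 3 columns was nearest to that of a single row of another Y gene, CCY. On average 98.5% of the summed level of the 7 genes was in the male column, 1.47% in the female and 0 in the metafemale one. By the distance between such shares, over 3 columns only, CCY (row CG40968) was nearest, with 0.695 CPM in males, 0.0102 in females and 0 in metafemales. HP6 (4.02 CPM in males, 0.0577 in females and 0.00669 in metafemales), CG5539 (17.9, 0.232 and 0.0253), CG14391 (8.88, 0.112 and 0.0171) and CG13039 (3.99, 0.0569 and 0.0108) followed, all autosomal and none at 0 in metafemales. HP6 and CG13039 were below 0.0112 CPM there, the level of 3 counts, and each of these genes was higher in males than CCY.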

How the data were processed

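The authors deposited 1 table of 19040 autosomal and 1 of 3698 X-linked transcripts with a fraction of all transcript counts per group, and each column sums to 1 over both tables. The Y-linked rows are in the autosomal table. TopHat, HTSeq and build dm3 are named in the submitters' processing notes, without versions, and the annotation release and use of strand are not given in the sources. Fractions were multiplied by 1000000 (CPM). Values below 0.05 CPM (1749 female, 981 male and 2170 metafemale) were whole-number combinations of 3 steps per column in 100% of cases, within 0.6 of the last of 6 printed digits, and this gave library totals and counts per library. On a simulated male column of 22738 rows, this method recovered the counts of 100% of such low values. The simulated libraries were closer to each other in size than the inferred male ones. The recovery given does not cover values from 0.05 CPM up, where most of the male rows divided in the Results lie. The effective depth of the means is 226, 169 and 269 M counts, and intervals are exact Poisson for levels and exact binomial for ratios. The transcript with the highest mean stood for its gene. Names, arms and coding lengths are from Release 6 annotations, another build, so no coordinates are given: 21508 transcripts matched by accession, 1089 by name and 141 not at all. Of the listed genes rye, don juan like and hale-bopp were not found and walker cup repeats wa-cup. Named genes are the 7 members, all genes of the short lists, all rows on the Y and the 5 genes nearest in pattern. Of the products, the 3 highest and 3 lowest are named, with those whose single values are uncertain. Members and lists were chosen with earlier results of these data known. The analysis used Python 3.11.15, pandas 2.3.3, NumPy 2.4.6, SciPy 1.17.1, statsmodels 0.14.6 and matplotlib 3.10.9.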

Additional observations from a re-analysis of the deposited data

How the results depend on the processing

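The 7 genes stayed at least 2-fold higher in males than in females without a filter, with 0.01 CPM added, with both other scalings and with summed rows, and 5 of 7 did with 1 CPM added, Pp1-Y1 and Ppr-Y being under 2-fold (background 15.0%). With a mean of at least 1 CPM no member was left. Their summed male level, 12.0 CPM, was 15.2 with all rows of a gene added, where the overlapping ARY rows may count reads double, 10.9 with median-of-ratios scaling and 11.7 with autosomal scaling. Median-of-ratios scaling moved males against metafemales by -0.45 (log2) and males against females by -0.04. At 1 count in place of 3, 6 members in place of 3 were detected in females, and leaving out each female library gave 3 to 3. The median member against both autosomal lists (log2, -3.78) was -6.59 per kb, -3.45 with summed rows, -1.60 against meiotic arrest genes alone and -4.70 against products alone, always below. Leaving out male libraries was not run for the main rows, whose values divide in many ways. Reading library counts with refined steps, and the male to female ratios without 1 female library (kl-3 17.4 to 49.0), were chosen after seeing the data. No paired analysis was possible because each group has 1 column and the labels give the replicates no shared numbers.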
